A study of Mus musculus with 8 samples.

Results

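Surfactant and alveolar type 2 genes were examined as a set of 10 of the 54532 genes counted in whole mouse lung. The set was given by name and comprised the surfactant proteins Sftpa1, Sftpb, Sftpc and Sftpd, the lamellar body, processing, lipid and transport genes Abca3, Lamp3, Napsa, Lpcat1 and Slc34a2, and the transcription factor Etv1. All 8 mice were CC-LR, a lung adenocarcinoma model on a C57BL/6 background. In it, Cre from the CCSP locus (Scgb1a1, the club cell secretory protein gene) switches on an oncogene in the lung epithelium. At 14 weeks of age, 4 Control mice were compared with 4 mice that had received TTI-101, a small-molecule STAT3 inhibitor, for 4 weeks, with 1 library per mouse. Both groups therefore carried the same oncogene, tumor-free lungs were not part of the comparison, and how TTI-101 was administered before RNA-seq was not given in the sources used here.

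Alveolar type 2 cells make pulmonary surfactant, the lipid and protein film that lowers surface tension in the alveolus, and store it in lamellar bodies before secretion. They also renew the alveolar epithelium by giving rise to alveolar type 1 cells, and they are one of the cell types from which lung adenocarcinoma can arise. The identity program of these cells depends on NKX2-1, with FOXA and C/EBP factors, and STAT3 has been linked to surfactant lipid and protein expression in this cell type. In bulk lung RNA, fewer cells of a type and less RNA per cell cannot be told apart.

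Sequence just before RefSeq start sites was read for members of the set. The drug target is a transcription factor, and the 10 genes varied together across mice. RefSeq start-site sequence on build GRCm38.p6 was matched for 7 of the 10 genes, in 8 windows of 250 bases. The searched letters, on both strands, were CTCAAG for NKX2-1, TGTTTAC for FOX factors and TTCNNNGAA for STAT factors, none of which overlapped in the windows printed here. The 3 printed windows are shorter than those searched, at 200 bases. They end at the base before the annotated gene start, run 5′ to 3′ on the gene's strand, and show the matches in capitals. Positions are counted from the RefSeq start site. Sftpb lies on the plus strand with its window at chr6:72304410-72304609, Sftpa1 on the plus strand at chr14:41131582-41131781, and Lamp3 on the minus strand at chr16:19706376-19706575.
Sftpb: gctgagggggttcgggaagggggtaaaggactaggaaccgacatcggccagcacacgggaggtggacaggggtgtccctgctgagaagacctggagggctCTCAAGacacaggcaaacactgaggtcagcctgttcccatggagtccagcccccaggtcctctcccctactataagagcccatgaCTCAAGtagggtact
Sftpa1: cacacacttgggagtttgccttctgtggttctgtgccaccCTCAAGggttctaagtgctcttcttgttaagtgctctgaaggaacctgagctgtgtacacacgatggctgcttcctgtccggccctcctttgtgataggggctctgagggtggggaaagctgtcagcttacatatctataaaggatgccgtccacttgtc
Lamp3: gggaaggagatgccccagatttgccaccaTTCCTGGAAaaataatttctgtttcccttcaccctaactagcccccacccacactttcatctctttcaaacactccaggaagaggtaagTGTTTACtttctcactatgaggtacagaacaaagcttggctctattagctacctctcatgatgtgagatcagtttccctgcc
The Sftpb window held 2 copies of the NKX2-1 letters, at -100 and -15, and the Sftpa1 window held 1 copy, at -166. A window of Etv1, not printed, held 2 copies, at -99 and -89, before a start site 4331 bases inside the annotated gene. The other Etv1 start site (702 bases) and those of Slc34a2 (11272 bases) and Abca3 (73 bases) also lie inside the annotated gene. Those of Lpcat1, Lamp3 and Sftpa1 lie 34, 10 and 6 bases inside. The Lamp3 window held 1 FOX match at -92 and 1 STAT match at -181. Among 8 windows of the set, 3 held the NKX2-1 letters, 1 the FOX letters and 1 the STAT letters, against 13.3%, 3.17% and 7.02% of all 32851 windows of the same length. These matches describe letters in the genome and are not evidence of binding.

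Control libraries held 16446481 to 26873509 counts and TTI-101 libraries 16075855 to 25920509. Expression is given as CPM, counts scaled to a common library size by TMM, and as FPKM, which also divides by gene length, where genes are compared with each other. The transcript of the drug target, Stat3, had a log2 fold change (TTI-101 over Control) of -0.08 with a standard error of 0.15. Control mouse 4 stood apart from the other mice, at 101 on a first principal component that held 45.2% of the variance, and 5.56% of its counts were mitochondrial against 2.01% to 2.85% elsewhere. The defining genes of the cell type were abundant in every library, so the alveolar type 2 label fits the tissue. Sftpc had the highest count of all genes and was second by FPKM, behind Scgb1a1, with a mean of 25473 FPKM. Sftpb (4515 FPKM) and Sftpa1 (2111 FPKM) ranked 6 and 12, whereas Etv1, at 1.71 FPKM, was the lowest of the set.

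All 10 genes had lower mean expression in TTI-101 than in Control lungs, but none passed the test. The log2 fold change ranged from -0.52 for Sftpb to -0.26 for Abca3, with a median of -0.42 beside 0.003 for all 17138 genes tested. Among all genes, 11.7% had a log2 fold change under this median. By edgeR's quasi-likelihood test, 0 of the 10 genes had an adjusted p under 0.05 (adjusted p from 0.657 to 0.786), against 0% of all genes tested. At an unadjusted p under 0.05 the count was also 0 of 10, where 6.61% of all genes passed, while DESeq2's Wald test placed 1 gene, Lamp3, under this limit, with 5.32% of all genes. At an adjusted p under 0.05, limma-voom called 0 of all genes and DESeq2 4 of 31830, and 0 of the 10 with either. No gene of the set had groups that did not overlap, against 1.43% of all genes in the lower direction and 1.53% in the higher. The 10 genes together took 5.45 ± 1.17% of all counts in Control and 4.20 ± 1.31% in TTI-101 libraries (SD, n = 4 each).

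**Figure D1:**
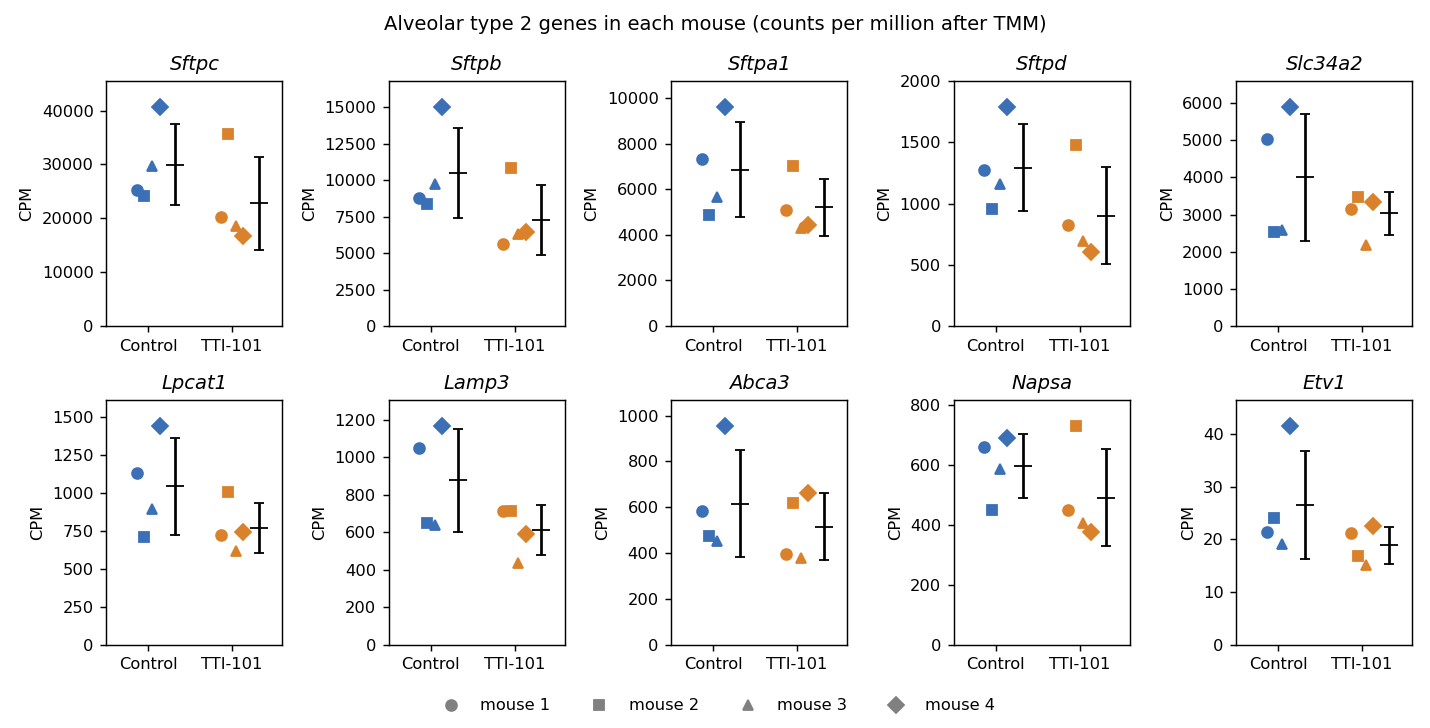
Expression of the 10 genes in each mouse, as CPM after TMM scaling on a linear axis from 0. Symbols mark mouse 1 to 4 of each group, which were not treated as paired. The black bar is the group mean with its SD (n = 4). Control mouse 4 was the highest Control mouse for all 10 genes, and the groups overlapped for every gene.

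Sftpc, Sftpb and Sftpa1 were the most abundant members by FPKM, followed by Slc34a2 (702 FPKM) and the surfactant protein Sftpd (454 FPKM). Sftpc (ENSMUSG00000022097, chromosome 14, 70520949 to 70524081, minus strand, 6 exons), which encodes the hydrophobic surfactant protein that marks type 2 cells, was at 25272, 24149, 29651 and 40617 CPM in Control mice 1 to 4 and at 20239, 35615, 18495 and 16673 CPM in TTI-101 mice 1 to 4. TTI-101 mice 1, 3 and 4 lay below every Control mouse, and TTI-101 mouse 2 lay above all but Control mouse 4. The log2 fold change was -0.40 (95% interval -1.08 to 0.29, unadjusted p = 0.228 from edgeR). Sftpb (ENSMUSG00000056370, chromosome 6, 72304610 to 72314371, plus strand, 11 exons), whose product is required for lamellar body formation and for a working surfactant film, was at 8750, 8402, 9771 and 15001 CPM in Control and 5606, 10852, 6284 and 6416 CPM in TTI-101 mice. The same arrangement was seen as for Sftpc, with TTI-101 mouse 2 the only treated mouse within the Control range. Its log2 fold change of -0.52 (95% interval -1.16 to 0.11) corresponds to a ratio of 0.695.

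The collectins Sftpa1 and Sftpd, which bind microbes and take part in innate defense of the alveolus, lie close together on chromosome 14. Sftpa1 (ENSMUSG00000021789, 41131782 to 41136452, plus strand) was at 7344, 4892, 5646 and 9605 CPM in Control and 5089, 7008, 4307 and 4419 CPM in TTI-101 mice. Only mice 3 and 4 of the treated group were below every Control mouse. The log2 fold change of Sftpa1 was -0.40 (95% interval -0.99 to 0.19). Sftpd (ENSMUSG00000021795, 41172214 to 41185149, minus strand) was at 1277, 952, 1158 and 1786 CPM in Control and 823, 1479, 698 and 607 CPM in TTI-101 mice, again with mouse 2 as the single treated mouse above the lowest Control mouse. Its log2 fold change was -0.52 (95% interval -1.19 to 0.15). Between these genes, the collectin Mbl1 averaged 5.35 ± 1.37 CPM in Control against 3.22 ± 1.38 CPM in TTI-101 lungs (SD, n = 4 each).

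Genes of the lamellar body and of surfactant lipid handling gave a similar range. Abca3 (ENSMUSG00000024130, chromosome 17, 24351950 to 24410201, plus strand, 33 exons), the transporter that carries phospholipid into the lamellar body, was at 582, 474, 451 and 956 CPM in Control and 397, 619, 379 and 661 CPM in TTI-101 mice. TTI-101 mice 2 and 4 were above 3 of the Control mice, and the log2 fold change was -0.26 (95% interval -0.89 to 0.37). Lamp3 (ENSMUSG00000041247, chromosome 16, 19653378 to 19706375, minus strand), a membrane glycoprotein of the lamellar body, was at 1051, 648, 639 and 1168 CPM in Control and 712, 711, 433 and 592 CPM in TTI-101 mice. Lamp3 had the lowest unadjusted p of the set (0.0666 from edgeR, log2 fold change -0.52, 95% interval -1.08 to 0.04), and its TTI-101 mice all lay below the Control mean. Lpcat1 (ENSMUSG00000021608, chromosome 13, 73467197 to 73516422, plus strand), the acyltransferase that remodels phosphatidylcholine for surfactant, was at 1133, 708, 892 and 1444 CPM in Control and 723, 1004, 614 and 741 CPM in TTI-101 mice. Only TTI-101 mouse 3 was under the lowest Control value of Lpcat1, and the log2 fold change was -0.44 (95% interval -0.98 to 0.11).

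Napsa (ENSMUSG00000002204, chromosome 7, 44572380 to 44586862, plus strand) encodes napsin A, an aspartic protease that processes pro-surfactant protein B and is a marker of lung adenocarcinoma. Its levels were 658, 450, 585 and 690 CPM in Control and 449, 731, 408 and 376 CPM in TTI-101 mice. Napsa was the one gene for which a treated mouse, TTI-101 mouse 2, exceeded every Control mouse, and its log2 fold change was -0.28 (95% interval -0.80 to 0.25). Slc34a2 (ENSMUSG00000029188, chromosome 5, 53038081 to 53071664, plus strand), the sodium-phosphate cotransporter that recovers phosphate from surfactant, was at 5024, 2527, 2585 and 5888 CPM in Control and 3141, 3461, 2176 and 3342 CPM in TTI-101 mice. The Control mice fell into a high pair (1 and 4) and a low pair (2 and 3), with 3 of the treated mice between them, and the log2 fold change was -0.40 (95% interval -1.09 to 0.28). Etv1 (ENSMUSG00000004151, chromosome 12, 38779380 to 38870484, plus strand), an ETS-family transcription factor, was at 21.5, 24.1, 19.0 and 41.6 CPM in Control and 21.1, 16.8, 15.1 and 22.6 CPM in TTI-101 mice. Without Control mouse 4, the Etv1 values of the groups were interleaved, and its log2 fold change over 8 mice was -0.49 (95% interval -1.05 to 0.08).

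As single values, the 10 genes gave two-sided exact permutation p-values between 0.114 for Sftpb and 0.486 for Abca3, over 70 assignments of the mice, of which the smallest possible is 0.0286. The intervals above reach from decreases of more than 1 on the log2 scale for 6 genes to small increases. For Sftpa1, the interval expressed as a ratio ran from 0.502 to 1.14. Abca3, Napsa and Slc34a2 each overlap at least 1 annotated gene on the opposite strand. With the strand setting of the counting not given in the sources used here, reads of those pairs might not be told apart. The antisense partners had at most 297 counts in a library, which does not show how many reads were left unassigned.

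**Figure D2:**
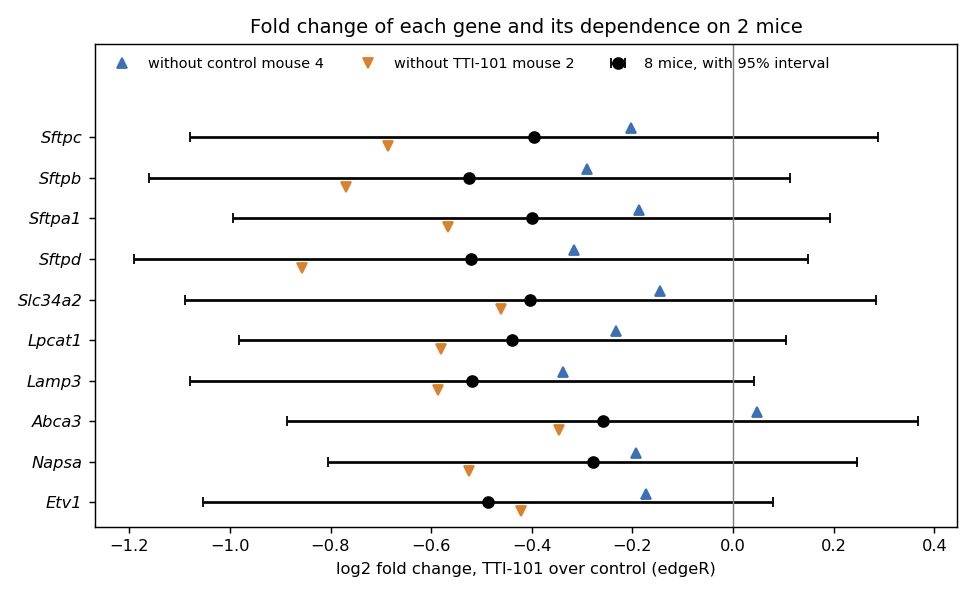
Log2 fold change of each gene, TTI-101 over Control, from edgeR; black points with bars are all 8 mice with 95% intervals, upward triangles leave out Control mouse 4 and downward triangles leave out TTI-101 mouse 2. Every interval includes 0; without Control mouse 4 the values lie between -0.34 and 0.05, and without TTI-101 mouse 2 between -0.86 and -0.35.

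The size of the difference changed with the mouse left out, most of all for Control mouse 4. The median log2 fold change was -0.55 without Control mouse 2, -0.53 without Control mouse 3 and -0.33 without TTI-101 mouse 3. Without Control mouse 4, the median log2 fold change of the 10 genes was -0.20, 9 of 10 were lower, and Abca3 stood at 0.05. Without TTI-101 mouse 2 the median was -0.57, and 5 genes (Sftpb, Sftpc, Sftpd, Napsa and Lpcat1) had an unadjusted edgeR p under 0.05, where 14.2% of all genes did. With Control mouse 4 and TTI-101 mouse 2 both left out, the median was -0.42. Then 4 genes (Sftpb, Sftpc, Sftpd and Napsa) were under this limit, with 12.2% of all genes. Sftpd had the lowest log2 fold change then, at -0.68, and Abca3 the highest, at -0.07. In each of these fits, 0 of the 10 genes had an adjusted p under 0.05.

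Xist, which is expressed from the inactive X chromosome, was at 400 CPM or more in mice 1 and 2 of each group and at 2.11 CPM or less in mice 3 and 4 of each group, so the groups were balanced for it. This split was made after the data were seen. It places Control mouse 4 with the low-Xist and TTI-101 mouse 2 with the high-Xist mice, the 2 mice left out together above. Between the 2 Control and 2 TTI-101 mice with high Xist, the median log2 fold change of the 10 genes was -0.06 and 7 of 10 were lower, whereas it was -0.80 with 10 of 10 lower between the mice with low Xist. Sftpd showed the lowest interaction p of the set, with log2 fold changes of 0.05 and -1.17. The difference between these was not significant after adjustment over all genes for any of the 10 (smallest unadjusted p = 0.0355 and adjusted p = 0.745 from edgeR). Xist and these 2 mice cannot be told apart in this contrast.

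The genes also varied in relation to one another. Over the 8 mice, Pearson's r of log2 CPM was above 0 for all 45 pairs, with a median of 0.774, as a description over points that share library scaling and Control mouse 4. Sftpa1 and Lpcat1 had the highest r (0.978), followed by Sftpc and Sftpd (0.971) and by Sftpd and Napsa (0.962). Etv1 was the least like the others, with r = 0.259 against Napsa and 0.445 against Sftpc, and without Control mouse 4 its r was below 0 against 5 of the genes. Sftpc made up 72.0% to 77.4% of the summed FPKM of the 10 genes in every mouse, and Sftpb 11.1% to 14.6%.

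Relative to Sftpc in the same mouse, the other 9 genes did not separate the groups. The largest mean difference in this log2 ratio was 0.19 for Abca3 (two-sided exact permutation p = 0.686), and the lowest p was 0.200, for Sftpd with a difference of -0.14. Control mouse 1 and TTI-101 mouse 4 had Slc34a2 0.59 and 0.60 above its mean ratio, and Lamp3 0.56 and 0.33 above, whereas TTI-101 mouse 2 was 0.44 and 0.50 below for these genes. TTI-101 mouse 4 had the highest Abca3 relative to Sftpc, at 0.89 above the mean over mice.

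**Figure D3:**
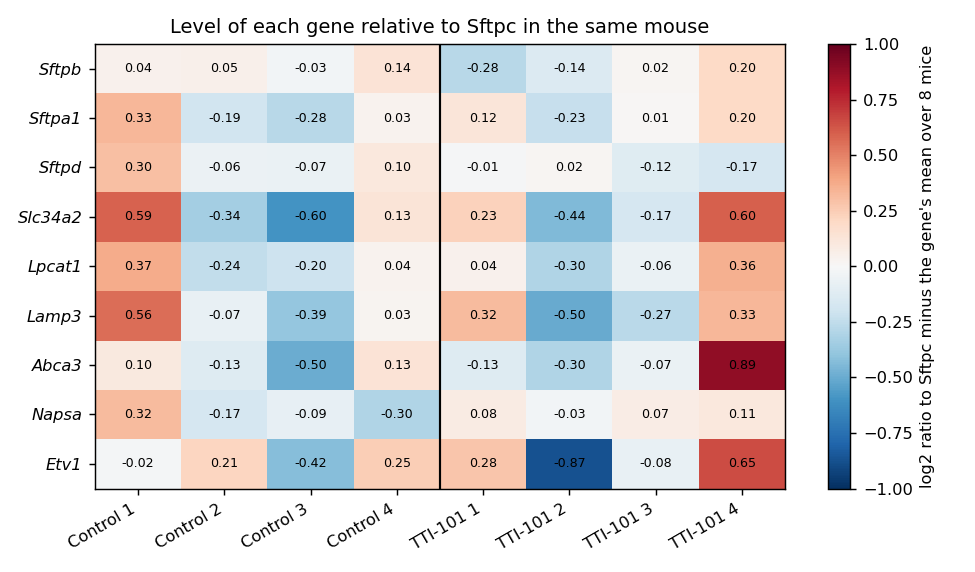
Log2 ratio of each gene to Sftpc in the same mouse, centred on the gene's mean over the 8 mice, so that 0 is the average ratio; red is higher and blue lower, and the line parts the Control from the TTI-101 mice. Abca3 in TTI-101 mouse 4 (0.89) and Etv1 in TTI-101 mouse 2 (-0.87) are the extremes, and no row separates the groups.

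Because type 2 cells are epithelial, each gene was also set against 12 genes shared by lung epithelia (such as Epcam, Cdh1 and Cldn7). All 12 were themselves lower in TTI-101 lungs, with a median log2 fold change of -0.48. At an unadjusted edgeR p under 0.05 there were 4, where 6.61% of all genes were. Without Control mouse 4 the median was -0.26, 11 of 12 were lower and 0 were under this limit (3.03% of all genes). The count was also 0 without TTI-101 mouse 1, 3 or 4 (4.08%, 2.42% and 4.34%). It was 9 without TTI-101 mouse 2 (14.2%) and 6 without Control mouse 1 (13.7%). The mean log2 CPM of the 12 genes was 6.78 ± 0.42 in Control against 6.31 ± 0.37 in TTI-101 mice (SD, n = 4 each, two-sided exact permutation p = 0.143). Relative to this mean, the 10 genes differed by -0.10 (Sftpd) to 0.23 (Abca3) on the log2 scale, with a median of 0.05 and 3 of 10 lower. The exact permutation p was 0.314 or above for every gene. Relative to Epcam alone the median was 0.22 with 0 of 10 genes lower, and relative to Nkx2-1 alone it was -0.15 with 9 of 10 lower, so the sign depended on the reference gene.

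**Figure D4:**
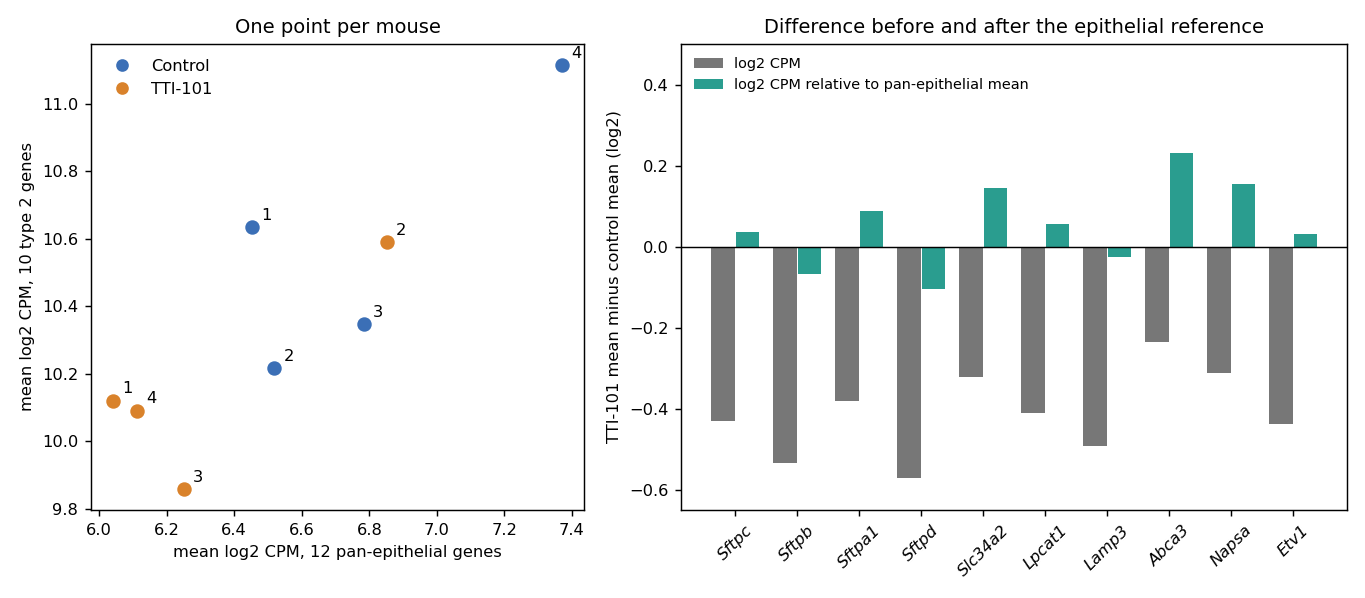
Left, mean log2 CPM of the 10 genes against that of 12 pan-epithelial genes, one numbered point per mouse; right, difference between group means on the log2 scale for each gene before (grey) and after (green) subtracting the pan-epithelial mean. The grey bars run from -0.57 to -0.24 and the green bars from -0.10 to 0.23.

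Other genes of the type 2 cell mostly had negative values. With all mice included few of these passed the unadjusted test, and the number depended on the mouse left out. Of 24 further type 2 genes, 21 had a negative log2 fold change, with a median of -0.46 (-0.20 without Control mouse 4). With all mice, 2 had an unadjusted edgeR p under 0.05, where 6.61% of all genes did, and 0 had an adjusted one. The 2 genes were Il33, an epithelial alarmin cytokine (137 ± 34.5 against 91.4 ± 14.6 CPM, SD, n = 4 each), and Fgfr2, the receptor of fibroblast growth factors that maintain the type 2 cell (329 ± 85.2 against 235 ± 43.0 CPM). Lyz2, lysozyme, which macrophages also express, had a log2 fold change of -0.32, and Cxcl15, lungkine, one of -0.55. Among 22 transcription factors and signals of type 2 cells, 19 were lower (median -0.23, and -0.09 without Control mouse 4), with Elf5 (-0.73), Sox2 (-0.94), Klf5 (-0.49) and Fgfr2 (-0.48) at an unadjusted p under 0.05, where 6.61% of all genes were. The count of such genes was 0 of 22 without Control mouse 4 and also without TTI-101 mouse 1, 3 or 4 (2.42% to 4.34% of all genes). It was 7 of 22 without TTI-101 mouse 2 (14.2%). Sox2 is a factor of the airway epithelium. Nkx2-1 itself was at 470 ± 60.4 CPM in Control and 397 ± 106 CPM in TTI-101 lungs (log2 fold change -0.25, unadjusted p = 0.253 from edgeR).

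The machinery for surfactant lipid and export showed smaller values. For surfactant lipid synthesis, 19 of 27 genes were lower with a median of -0.12, which was 0.01 without Control mouse 4, and 0 had an unadjusted edgeR p under 0.05. Scd1, a fatty acid desaturase, lay between 1648 and 8423 CPM in Control and between 2030 and 3409 CPM in TTI-101 mice. Of 25 genes for processing, trafficking and secretion, 18 were lower (median -0.09, and -0.02 without Control mouse 4), and the 2 with an unadjusted p under 0.05 were Atp11a (-0.66), a phospholipid flippase, and Rab27a (-0.55), a GTPase of regulated secretion. The share of all genes under this limit was 6.61%. Leaving out Control mouse 4, or TTI-101 mouse 1 or 3, brought the count to 0. Leaving out TTI-101 mouse 2 brought it to 6, and that of lipid synthesis to 4, with 14.2% of all genes. In the group for surfactant clearance and homeostasis, 3 of 12 genes were lower and the median was 0.14, with the lysosomal phospholipase Pla2g15 at 0.45 and the scavenger receptor Cd36 at 0.31.

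Type 1 cell genes had values of the opposite sign. Of 17 such genes, 16 were higher in TTI-101 lungs, with a median log2 fold change of 0.41 (0.27 without Control mouse 4). At an unadjusted edgeR p under 0.05 there was 1, where 6.61% of all genes were. This gene was the cytochrome P450 gene Cyp4b1 (466 ± 129 against 677 ± 134 CPM, SD, n = 4 each). Without Control mouse 4 or without TTI-101 mouse 1, 3 or 4, the count was 0 of 17 (2.42% to 4.34% of all genes). It was 8 without TTI-101 mouse 2 (14.2%) and 4 without Control mouse 1 (13.7%). Ager, the classical type 1 marker, was at 913 to 1582 CPM in Control and 1557 to 2365 CPM in TTI-101 mice, and Aqp5 was the 1 gene with a negative value (named after its values were seen). Of 16 genes of transitional alveolar epithelium, the state between type 2 and type 1 cells, 13 were lower (median -0.21, and -0.07 without Control mouse 4). Krt8 (-0.71), Krt18 (-0.90), Lcn2 (-0.92) and Areg (-1.23) had an unadjusted p under 0.05, where 6.61% of all genes did. Without Control mouse 4 or without TTI-101 mouse 1, 3 or 4, 0 of the 16 did. Without TTI-101 mouse 2, 6 of the 16 did (14.2% of all genes).

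Markers of other lung cells were summarised in the same way, and 0 of them had an adjusted edgeR p under 0.05. Club cell (9 of 12 lower) and ciliated cell genes (12 of 12 lower) had medians of -0.57 and -0.61. Of each list, 3 genes were at an unadjusted p under 0.05, where 6.61% of all genes were. Endothelial (12 of 12 higher) and fibroblast genes (10 of 10 higher) had medians of 0.50 and 0.46, with 1 and 0 genes under this limit. The counts without Control mouse 4 were 2 for club cell genes and 0 for the other 3 lists (3.03% of all genes). Without TTI-101 mouse 2 they were 5 for club cell, 10 for ciliated cell, 2 for endothelial and 2 for fibroblast genes (14.2%). Scgb1a1, which drives Cre in this model, averaged 22680 ± 8451 CPM in Control against 13525 ± 3678 CPM in TTI-101 lungs (SD, n = 4 each; log2 fold change -0.75, unadjusted p = 0.0450 from edgeR). Summed endothelial markers lay at 1346 to 4031 CPM in Control and 3101 to 5392 CPM in TTI-101 mice, and summed fibroblast markers at 1803 to 4627 CPM and 4033 to 6430 CPM. All 10 B cell genes had positive values (median 1.25) and an unadjusted p under 0.05, 9 of them without Control mouse 4. Their sums did not overlap, at 164 to 586 CPM in Control and 761 to 992 CPM in TTI-101 mice. Taken singly, 2 of the 10 had groups that did not overlap, against 1.53% of all genes in this direction. Ighm alone gave 659 CPM of the sum of TTI-101 mouse 2, against 243 to 341 CPM in the other TTI-101 mice. Without Ighm, the sum of TTI-101 mouse 2 lay below that of Control mouse 1, so the sums overlapped. T cell genes (10 of 10 higher, median 0.62), alveolar macrophage genes (7 of 11 higher, 0.23) and red blood cell genes (6 of 6 tested higher, 2.48) also had positive medians, with 1, 0 and 5 genes at an unadjusted p under 0.05. Proliferation genes had negative values in 10 of 10 (median -0.45), 5 of them under this limit and 1 without Control mouse 4. No defining marker of these lists was at 0 in all libraries. The medians without Control mouse 4 for ciliated, endothelial and fibroblast genes were -0.36, 0.28 and 0.25. The part of cell composition in the values of the type 2 genes was not tested.

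**Figure D5:**
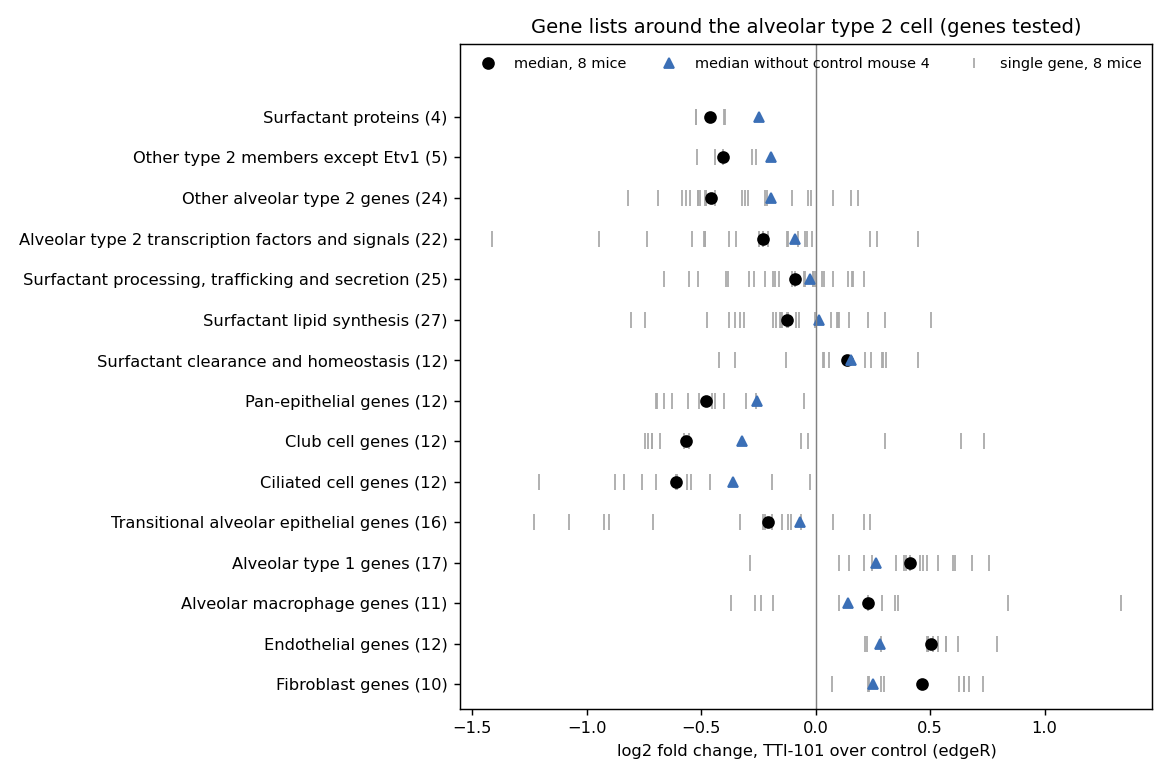
Log2 fold change, TTI-101 over Control, by gene list (number of genes tested in parentheses); grey ticks are single genes and black points list medians over 8 mice, and blue triangles the medians without Control mouse 4. Medians of the type 2 lists lie left of 0, and those of the surfactant clearance, type 1, endothelial and fibroblast lists right of 0. Most medians are nearer to 0 without that mouse.

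Outside the set, the genes whose log2 CPM over the 8 mice was most like the mean of the 10 genes were Adipor2 (Pearson's r = 0.990), Hdc (0.990), Dram1 (0.989), the noncoding RNA Rian (0.989) and Pbld2 (0.987). Adipor2 encodes an adiponectin receptor and Hdc histidine decarboxylase. Among the listed type 2 and surfactant genes, Dram1, Rab27a (0.976), Ctsh (0.957), Fgfr2 (0.951) and Cds1 (0.949) came highest. Ctsh encodes a cathepsin that processes surfactant proteins, and Cds1 an enzyme of phospholipid synthesis. These values are descriptions over 8 libraries that share their scaling and the high value of Control mouse 4, and r without that mouse was 0.977 for Adipor2 and 0.875 for Cds1.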

How the data were processed

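Whole-lung RNA from 4 Control and 4 TTI-101 CC-LR mice was sequenced by a commercial provider after poly(A) selection with a stranded mRNA kit and paired-end reads. The submitters' processing notes name STAR, DESeq2 and the build mm10. The counting tool, its strand setting and all versions were not given in the sources used here. What the authors deposited is a table of raw counts, not normalized, of 54532 Ensembl genes with the length of each. Coordinates of all 10 genes were identical to GENCODE M21 (GRCm38).

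The versions used here were R 4.3.3, limma 3.58.1, DESeq2 1.42.0 and edgeR 4.0.16. Genes were kept by filterByExpr at a minimum count of 10, which left 17138 genes and all 10 of the set. Libraries were scaled by TMM, and TTI-101 was compared with Control by robust quasi-likelihood F-tests with no covariate, adjusting p-values over all 17138 genes by Benjamini-Hochberg. Log2 CPM used a prior count of 2, and FPKM was computed from the deposited counts and lengths. Single values and ratios were compared by two-sided exact permutation tests over 70 assignments. Total counts ranged from 16075855 to 26873509, and p-values set the difference between groups against the variation among these 8 mice. The fits were tested on simulated data. Motifs were counted in RefSeq sequence around start sites.

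The 10 genes and the gene lists were chosen with earlier results of these data known, so no p-value was adjusted over a list and no list was tested. Every gene of the set is described. From each other list, up to 3 genes with the lowest edgeR p and up to 3 with the highest FPKM could be named, and also the 5 genes most like the mean of the set, the most alike listed genes, Stat3, Scgb1a1 and Cyp1a1. A further gene that the rule allowed is not reported here. Mbl1 and Xist were added after their values were seen. Alternatives were DESeq2, limma-voom, DESeq2 size factors, library totals, library totals without the set and mitochondrial genes, no filter, 10 counts in every library, a replicate block, Xist as a covariate, each library left out in turn, a prior count of 0.5 and other epithelial references. Leaving out Control mouse 4 and TTI-101 mouse 2 together, list medians without a mouse, and the split by Xist were chosen after seeing the data.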

Additional observations from a re-analysis of the deposited data

Results flagged for a closer look

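Among 50 groups of 4 mice (levels, ratios and library measures), 6 held a sample whose gap to its nearest neighbour exceeded Dixon's 95% critical value as a share of the group's range, where about 2.5 would do so by chance. TTI-101 mouse 2 had Sftpb at 10852 CPM, with 6416 CPM next in its group (ratio 0.846), and the 10 genes took 6.15% of its counts, with 3.81% next (0.846). Control mouse 1 had Sftpd at 3.87 above the pan-epithelial mean on the log2 scale, with 3.43 next (0.884). Control mouse 3 had Etv1 at -2.53 relative to the pan-epithelial mean, with -2.02 next (0.835). Control mouse 1 had 26873509 total counts, with 18220467 next among Control libraries (0.830). Control mouse 4 had 5.56% mitochondrial counts, with 2.85% next (0.867).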

How the results depend on the processing

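Of 180 values recomputed for single genes, 179 kept their direction and their side of the adjusted threshold, and 1, Abca3 without Control mouse 4, reversed to a log2 fold change of 0.048 (range -0.404 to 0.048 with 1 mouse left out). The number of the 10 genes with an adjusted p under 0.05 was 0 under every alternative, by edgeR, limma-voom and DESeq2. The number with an unadjusted p under 0.05 was 0 in the main fit, 1 with DESeq2's Wald test (Lamp3, 5.32% of all genes), 1 with no filter (Lamp3, 5.81%), 1 with the replicate block (Etv1, 7.57%), 0 to 5 with 1 mouse left out, and 4 with Control mouse 4 and TTI-101 mouse 2 both left out (12.2%). It was 2 without Control mouse 2 (6.51% of all genes), 2 without Control mouse 3 (4.74%) and 5 without TTI-101 mouse 2 (14.2%). With 1 mouse left out, the median log2 fold change ranged from -0.57 to -0.20, the number of lower genes from 9 to 10 and the median difference relative to pan-epithelial genes from -0.02 to 0.21. Scaling by library totals gave a median of -0.37 for the set and 0.04 for all genes. Same-numbered mice of the 2 groups deviated together with r = 0.393, 0.082, 0.158 and 0.071, and only numbers 1 and 2 matched best with their own number. These values do not settle whether the numbers pair the mice, and the main fit treated the mice as unpaired. With the block the median was -0.43. Etv1 had 272 to 650 counts per library, and the other 9 genes 6188 or more.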
